A study of Caenorhabditis elegans with 18 samples.

Results

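Introns of 45 to 50 bases on the 5 autosomes of Caenorhabditis elegans were followed after auxin was given to worms in which the splicing factor MOG-7 carries a degron. An intron interval was included when it lay on chromosome I, II, III, IV or V, was 45 to 50 bases long, and belonged to a single gene that is in the table of protein-coding genes and has at least 2 intron intervals. These criteria chose 21157 of 106818 intervals, in 9685 host genes. They make up 27.7% of the 76272 autosomal introns of any length that meet the same criteria on the host.

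Introns are removed from pre-mRNA by the spliceosome, which recognises the start of the intron, a branch region and the end of the intron. When removal fails, the intron can remain in the polyadenylated RNA and be sequenced with it. Much of the worm's genome is made of compact genes, and very short introns close to the lower limit that the spliceosome can handle are common in them. The reads of an intron relative to the reads of its host gene give a measure of unspliced RNA that does not move with the level of the gene alone.

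All worms were of 1 strain that carries 2 constructs, mog-7::degron::gfp and, for the plant protein TIR1, sun-1p::TIR1::mRuby. The sun-1 promoter is active in the germline, so that auxin directs loss of the tagged MOG-7 to germ cells, and somatic cells keep it unless the promoter is active there. Synchronized young adult hermaphrodites grown on OP50 bacteria at 20 °C were taken before they formed embryos, after 2 h of auxin, 1 h of auxin or 2 h of ethanol as the control. Each group has 6 libraries, 1 from each of 6 batches (I, II, V and VII, then VIII and X), and there are 18 libraries in all. Worms on auxin without the degron or without TIR1 are not analysed here, so auxin itself and loss of MOG-7 cannot be told apart. Whole worms were used, and in such bulk RNA fewer germ cells and less RNA per germ cell cannot be told apart.

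Libraries held 18153020 to 30747645 reads on protein-coding genes and 186471 to 885408 on introns, of which 21838 to 220240 fell in the 45 to 50 base class. Genes of the early zygotic embryo were nearly silent, with 22.5 to 26.5 CPM (gene counts scaled to library totals adjusted by TMM factors) summed over 20 genes, 14 of which were under 1 CPM. Germline genes were abundant: a list of 34 germline RNA regulators summed to 10360 to 12560 CPM after 2 h of auxin, 12260 to 14020 CPM after 1 h and 12730 to 15370 CPM with ethanol. Nothing in the labels says whether batches were separate cultures beyond their names, so p-values measure the spread between these libraries.

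Reads in the introns of 45 to 50 bases rose in both auxin groups. Summed over all 21157 introns, with each host gene counted once, they came to 17.2 ± 1.34 per 1000 host gene reads after 2 h of auxin, 13.3 ± 1.18 after 1 h and 2.58 ± 0.169 with ethanol (SD, n = 6 each). The lowest, median and highest libraries were 15.6, 17.4 and 19.2 after 2 h, 11.7, 13.3 and 14.5 after 1 h, and 2.37, 2.57 and 2.84 with ethanol. No auxin library overlapped an ethanol library, and the lowest 2 h library lay above the highest 1 h library.

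Within batches the ratio of 2 h to ethanol was between 5.75 and 7.15, and that of 1 h to ethanol between 4.61 and 5.83. The ratio of the group means was 6.67 for 2 h and 5.13 for 1 h. Between the auxin groups the 2 h value was 1.299 times the 1 h value, with 1.23 to 1.38 in the 6 batches, and it was the higher one in 6 of 6. The increase over ethanol at 1 h was 72.96% ± 5.10 of that at 2 h (SD, n = 6 batches). These introns held 25.2% ± 0.386 of all intron reads after 2 h, 24.03% ± 0.552 after 1 h and 12.7% ± 0.643 with ethanol. The pooled values describe the class and carry no test, since its members were chosen with results of these libraries known.

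**Figure D1:**
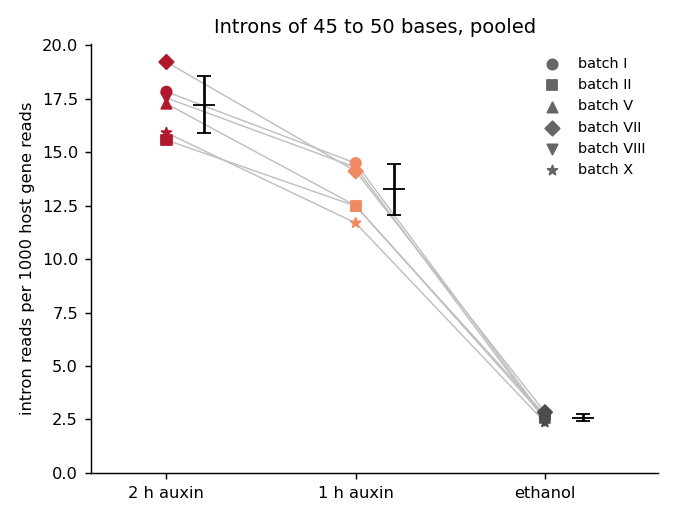
Reads in introns of 45 to 50 bases per 1000 reads of their host genes, in each library (y axis), for worms after 2 h of auxin, 1 h of auxin or 2 h of ethanol. Symbols mark the batch, grey lines join libraries of a batch, and bars give mean ± SD (n = 6); the 2 h libraries lie between 15.6 and 19.2, the 1 h libraries between 11.7 and 14.5 and the ethanol libraries between 2.37 and 2.84.

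Most of these introns lie in weakly read genes. Of the 21157, 5550 had no read in any library, and 14698 had a host with a mean under 1000 counts with ethanol. In the remaining 6459, whose hosts averaged at least 1000 counts, 80 had no read anywhere. Introns were tested one by one relative to their host with the quasi-likelihood test of edgeR over all introns of single-host genes, and 4007 of the 21157, in 2041 hosts, passed the filter on low counts (minimum count 10). An intron can pass through the group in which it is high, so these 4007 do not stand for the whole class.

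After 2 h of auxin 3795 of the 4007 introns rose relative to their host and 10 fell (Benjamini-Hochberg adjusted p under 0.05 over 13879 introns tested). Over all introns tested 85.0% rose and 0.504% fell. After 1 h 3777 rose and 12 fell, against 84.1% and 0.569% of all introns tested. The same 3764 introns rose at both times. From 1 h to 2 h 1880 rose further and 22 fell, against 36.3% and 0.793% of all introns tested. With TMM scaling of the intron counts in place of the host offset, 68.93% of the 4007 rose and 12.95% fell at 2 h, beside 51.91% and 28.11% of all introns tested. Between the times that scaling gave 339 rises and 192 falls, beside 6.70% and 6.10% of all introns tested. Tested against a fold change of 1.5 relative to the host, 184 rose and 0 fell between the times, beside 3.17% and 0.036% of all introns tested. The median log2 change of the 4007 was 4.33 at 2 h and 3.79 at 1 h, beside 3.45 and 3.01 over all introns tested.

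The count did not rest on the filter alone. Among the 6459 introns of hosts with at least 1000 counts, whatever their own reads, 4938 rose at 2 h, 4792 at 1 h and 1516 between the times. Over all introns of such hosts with any read, 65.9% rose at 2 h, 63.9% at 1 h and 16% between the times. In 2015 of the 4007 introns every ethanol library was at or under 3 reads, so that their fitted fold changes depend on the model, and a bound is given in place of a fold where such an intron is named.

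The introns differed widely in how much they were read. Over 5909 introns whose hosts averaged at least 1000 counts in every group, the median was 4.16 per 1000 host gene reads after 2 h, 3.31 after 1 h and 0.362 with ethanol. The range from the 10th to the 90th percentile was 0.337 to 21.9 after 2 h, 0.281 to 15.1 after 1 h and 0.0262 to 1.89 with ethanol. A level of at least 10 per 1000 was reached by 1594 introns after 2 h, 1091 after 1 h and 70 with ethanol, and one of at least 50 per 1000 by 99, 40 and 13 introns in the same order. The 212 introns with the most reads in each group held 25.3% of the class's reads after 2 h, 26.8% after 1 h and 43.3% with ethanol.

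**Figure D2:**
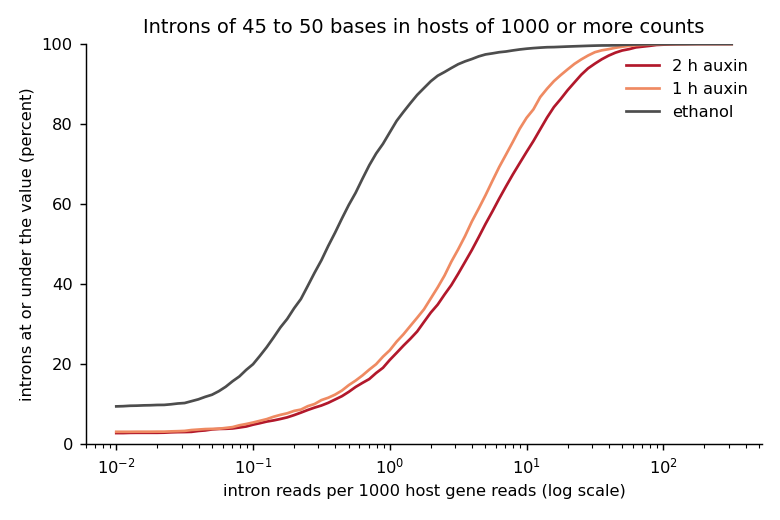
Share of 5909 introns of 45 to 50 bases (y axis, percent) at or under a given number of reads per 1000 host gene reads (x axis, log scale), for hosts averaging at least 1000 counts in every group, one line per group with libraries summed. The 2 h and 1 h curves lie to the right of the ethanol curve, with medians of 4.16, 3.31 and 0.362.

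A ratio to host reads depends on the length of the host, so levels were compared between genes as intron reads per host reads in 100 bases of the host's listed length. On this scale the median of the 5909 introns was 0.101 after 2 h, 0.0808 after 1 h and 0.00878 with ethanol. A level of at least 1 was reached by 102 introns after 2 h, 50 after 1 h and 22 with ethanol. A read that spans an intron edge may count for the intron, and the read length and overlap rule are not given in the sources used here, so a level of 1 is not a share of unspliced RNA.

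In reads per 1000 host gene reads, levels differed less between introns of the same gene than over all introns. Introns of a host share its count and length, so part of this likeness is built into the scale. How large that part is was not tested. In 1465 hosts with at least 2 of these introns, the SD of the log2 level after 2 h was 0.92 within hosts and 2.17 over all 5127 introns. The highest intron of a host was read a median of 2.26 times as much as the lowest. The gene cbd-1, for a chitin-binding protein of the eggshell, shows this range within 1 transcript: its 8 introns of the class averaged 3.65 to 26.9 per 1000 host gene reads after 2 h, 2.59 to 21.3 after 1 h and 0.0177 to 0.215 with ethanol.

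The 6 introns with the highest level after 2 h, with 1 intron per gene, among those that rose at both times in hosts of at least 1000 counts, came from C53H9.2, F14H3.6, elof-1, K07A1.1, glh-1 and B0334.4. Coordinates are on WBcel235, and groups of 3 values give the lowest, median and highest of 6 libraries in reads per 1000 host gene reads. The highest of all was the 49-base intron of C53H9.2 (chromosome I, 1834138 to 1834186, plus strand, between coding exons), with 132, 149 and 167 after 2 h, 74.1, 88.4 and 114 after 1 h, and 1.47, 1.98 and 2.58 with ethanol. The groups did not overlap, and the log2 change was 6.18 at 2 h (SE 0.16, edgeR adjusted p = 5.24e-36) and 5.48 at 1 h (SE 0.16, adjusted p = 1.4e-33). Its host mRNA fell by 0.35 on the log2 scale at 2 h (SE 0.05, adjusted p = 7.53e-05).

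The 47-base intron of F14H3.6 (chromosome V, 16058404 to 16058450) had 125, 142 and 174 after 2 h, a lowest of 68.3, a median of 89.8 and a mean of 87.5 ± 11.5 (SD, n = 6) after 1 h, and 0, 2.38 and 6.02 with ethanol. In elof-1, for a homologue of a transcription elongation factor, the 49-base intron (chromosome II, 14350293 to 14350341) had 99.0, 127 and 136 after 2 h, 53.6, 67.1 and 88.7 after 1 h, and 0, 1.00 and 15.02 with ethanol. The introns of K07A1.1 (chromosome I, 9582873 to 9582922) and B0334.4 (chromosome II, 11496161 to 11496205) had medians of 127 and 112 after 2 h, 55.6 and 51.1 after 1 h, and 9.18 and 2.20 with ethanol. In each of these 6 introns every 2 h library lay above every ethanol library. Their hosts range from 656 to 2552 bases in listed length, and per 100 bases of host the levels after 2 h ran from 0.805 in elof-1 to 2.91 in glh-1.

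The intron with the largest log2 change, among those with at least 18 reads over the ethanol libraries, was in glh-1, which encodes a Vasa-family RNA helicase of germ granules. This 46-base intron (chromosome I, 6856913 to 6856958, plus strand, between coding exons) had 103, 114 and 132 reads per 1000 host gene reads after 2 h, 73.1, 88.1 and 98.2 after 1 h, and 0.537, 0.712 and 0.831 with ethanol. That is 1209 to 1677 intron reads per library after 2 h, and 6 to 10 with ethanol. The log2 change was 7.37 at 2 h (SE 0.15, edgeR adjusted p = 2.57e-40) and 6.96 at 1 h (SE 0.15, adjusted p = 3.22e-39). The host mRNA was at 548 ± 20.8 CPM after 2 h, 597 ± 25.1 after 1 h and 544 ± 17.1 with ethanol, with a log2 change of 0.01 at 2 h (adjusted p = 0.863). The other 3 introns of the class in glh-1 averaged 15.9, 23.02 and 23.16 after 2 h, and 0.179, 0.647 and 0.471 with ethanol, and each of them rose as well.

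With 1 intron per gene, the list of largest changes went on with C53H9.2, described above, and with genes of the oocyte, the eggshell and the cytoskeleton. The 46-base intron of cbd-1 (chromosome IV, 11374438 to 11374483) had 25.3, 25.97 and 31.03 after 2 h, 18.7, 21.4 and 22.9 after 1 h, and 0.105, 0.183 and 0.237 with ethanol (log2 change 7.26 at 2 h, SE 0.15, edgeR adjusted p = 2.4e-39). In puf-5, for an RNA-binding protein of oogenesis, the 47-base intron (chromosome II, 8576655 to 8576701) had 25.96, 29.1 and 32.9 after 2 h, 10.3, 13.5 and 17.8 after 1 h, and 0.0464, 0.401 and 0.736 with ethanol. In cpg-1, for a proteoglycan of the eggshell, the 46-base intron (chromosome III, 4490411 to 4490456) had 7.64, 9.94 and 12.3 after 2 h, 4.86, 6.36 and 6.98 after 1 h, and 0.0465, 0.171 and 0.227 with ethanol. The first intron of tbb-1, for a beta-tubulin, had 17.4, 19.1 and 22.2 after 2 h, 10.2, 12.1 and 15.4 after 1 h, and 0.119, 0.277 and 0.408 with ethanol. None of these auxin libraries overlapped an ethanol library, and log2 changes at 2 h in puf-5, cpg-1 and tbb-1 were 6.17, 6.08 and 6.08 (adjusted p from 1.36e-32 to 1.5e-30). Reads shared between tbb-1 and other beta-tubulin genes may affect its values, since the treatment of such reads is not given in the sources used here.

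**Figure D3:**
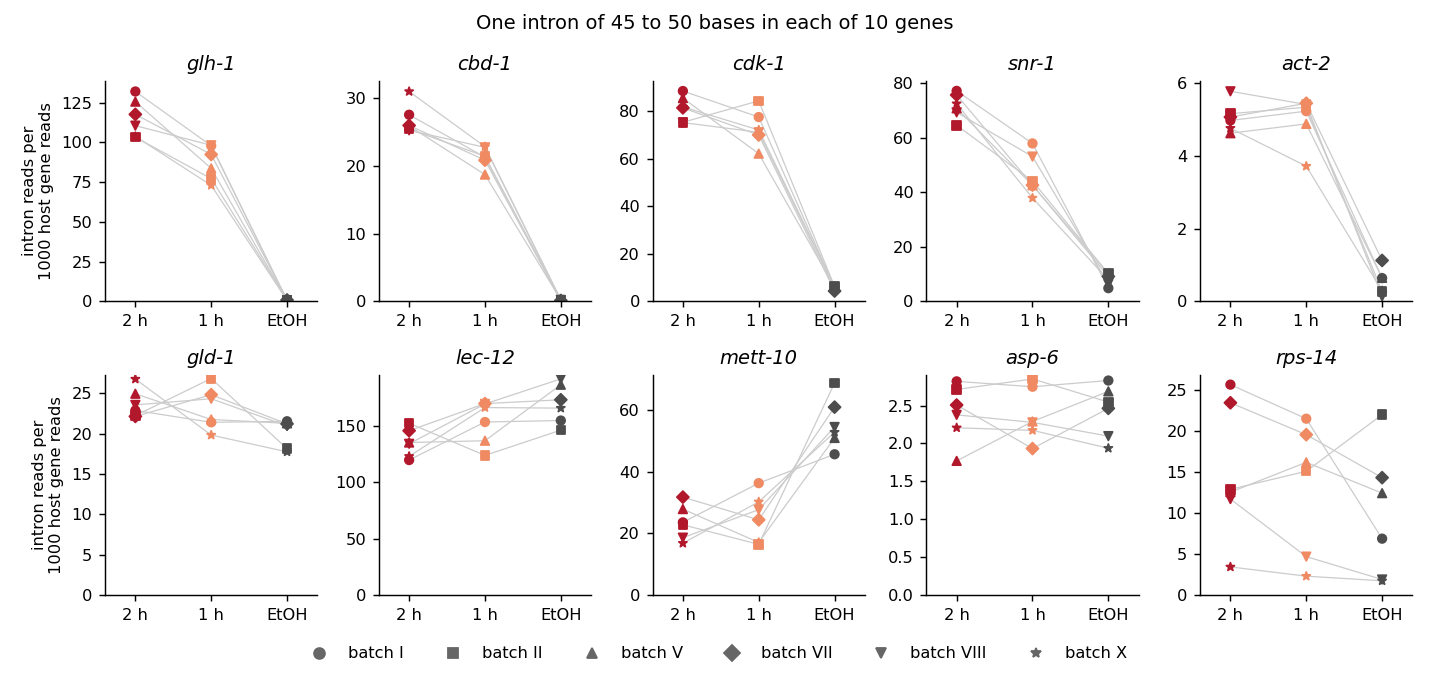
Reads of 1 intron of 45 to 50 bases in each of 10 genes per 1000 host gene reads (y axis, a separate scale for each gene) in every library after 2 h of auxin, 1 h of auxin or ethanol (EtOH); symbols mark the batch and grey lines join libraries of a batch. In glh-1, cbd-1, cdk-1, snr-1 and act-2 every auxin library lies above every ethanol library, in mett-10 every auxin library lies below, and in asp-6 and rps-14 the groups overlap.

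The class was compared with introns of other lengths for levels, with no test of the difference. Levels were not scaled to intron length, so a longer interval can hold more reads from the same unspliced RNA. Per intron, with the reads of the host counted for each of its introns, the class had 7.25 reads per 1000 host gene reads after 2 h, 5.57 after 1 h and 1.08 with ethanol. The 55115 other introns under the same criteria had 7.32, 6.05 and 2.37 in that order. Introns of 44 bases or less had 8.05, 6.33 and 1.32, and those of 51 to 100 bases 6.46, 5.19 and 1.73. At the edges, introns of 45 bases had 7.28, 5.69 and 1.08 and those of 50 bases 7.34, 5.49 and 1.25, beside 8.62, 6.73 and 1.18 for 44 bases and 7.34, 5.75 and 1.33 for 51 bases.

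**Figure D4:**
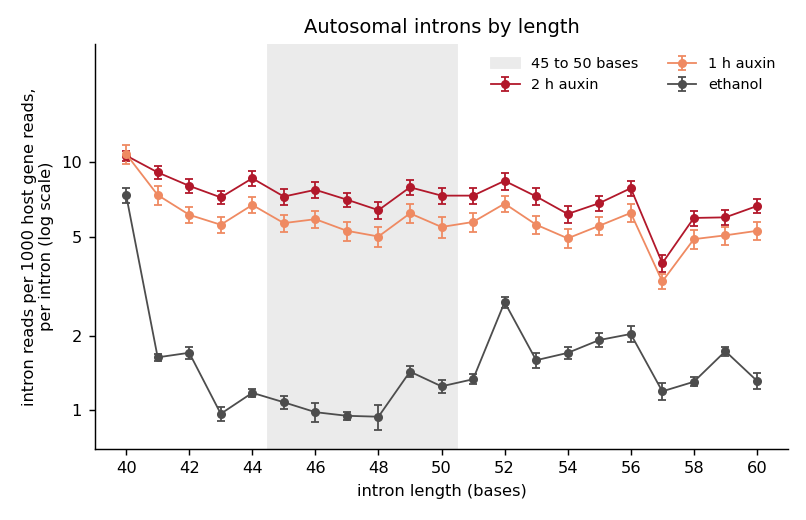
Intron reads per 1000 host gene reads, per intron (y axis, log scale), against intron length from 40 to 60 bases (x axis), as mean ± SD over 6 libraries for each group; the grey band marks 45 to 50 bases. Within the band the values lie between 6.41 and 7.93 after 2 h, between 5.02 and 6.23 after 1 h and between 0.943 and 1.43 with ethanol.

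Genes that carry introns of both kinds allow a comparison within the host. These levels too were not scaled to intron length, so they do not compare the share of unspliced RNA between lengths. In 1876 hosts of at least 1000 counts that also have introns of 51 to 100 bases, the short introns had 6.21 ± 0.433 reads per 1000 host gene reads after 2 h, 4.88 ± 0.424 after 1 h and 0.886 ± 0.0531 with ethanol. The longer ones had 5.54 ± 0.394, 4.45 ± 0.337 and 1.296 ± 0.0715 in the same hosts. With ethanol the highest library of the 45 to 50 base introns, 0.957, lay below the lowest library of the longer introns, 1.19. By host, the shorter intron was the less read in 48.0% of the 1876 genes after 2 h, 47.5% after 1 h and 55.4% with ethanol. In 1467 hosts that also have introns of over 100 and up to 400 bases, the class had 5.17 ± 0.395 after 2 h, 4.06 ± 0.363 after 1 h and 0.900 ± 0.0636 with ethanol. Those longer introns had 6.00 ± 0.456, 4.90 ± 0.381 and 1.87 ± 0.0714, and the class was the less read in 59.6% of these hosts after 2 h, 59.2% after 1 h and 61.6% with ethanol. Against introns of any other length, in 2392 hosts, the class had 6.64 ± 0.466 after 2 h, 5.17 ± 0.438 after 1 h and 0.949 ± 0.0617 with ethanol. Those other introns had 6.33 ± 0.412, 5.18 ± 0.37 and 1.73 ± 0.0478. By host, the class was the less read in 65.7%, 64.9% and 70.1% of the 2392. In 840 hosts that also have introns of 44 bases or less, the class had 6.09 ± 0.347 after 2 h, 4.79 ± 0.349 after 1 h and 0.911 ± 0.0592 with ethanol, and the shorter introns 7.26 ± 0.402, 5.79 ± 0.416 and 0.990 ± 0.0492. By host, the class was the more read in 419 and the less read in 414 of the 840 after 2 h, 413 and 420 after 1 h, and 417 and 408 with ethanol.

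Of the class 0.775% overlap an annotated exon of their own gene, against 2.1% of the introns of other lengths. With such intervals and those that match no annotated intron left out, a choice made after seeing the data, the class had 7.17 after 2 h, 5.48 after 1 h and 1.00 with ethanol. Introns of 51 to 100 bases then had 6.32, 5.05 and 1.59 reads per 1000 host gene reads.

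What the introns share besides length was taken from the Ensembl annotation of WBcel235, which holds 99.4% of them as introns. Almost all, 97.5%, lie between coding exons, 105 lie in 5′ untranslated regions, 66 in 3′ untranslated regions and 235 in noncoding transcripts of the host. A length divisible by 3 was found in 33.8% of them and in 32.7% of the other introns. Chromosome V has the most, with 6231, and chromosome III the fewest, with 3144. Sequence features such as splice sites were not analysed here.

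By position, last introns of a gene had 9.59 reads per 1000 host gene reads after 2 h, 7.14 after 1 h and 1.53 with ethanol, inner introns 6.27, 4.93 and 0.936, and first introns 8.70, 6.42 and 1.18. The position and the number of introns move together, since inner introns come from genes with more introns. In 689 hosts of any count that have all 3 kinds, the values were closer: 9.40 ± 0.561 for last, 7.93 ± 0.445 for inner and 8.40 ± 0.531 for first introns after 2 h. With ethanol they were 1.05 ± 0.0632, 0.985 ± 0.0677 and 1.01 ± 0.0245, which overlap. Across the 5 chromosomes the level after 2 h ran from 6.24 on IV to 7.72 on V, and with ethanol from 0.820 on IV to 1.34 on V.

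The introns were then read by the function of their host, beside 85.0% of all introns tested that rose at 2 h. Reads of the class were summed over each list, with each host counted once. A list value therefore also depends on the number of introns per host, such as 118 in 31 hosts for germline RNA regulators and 34 in 20 for intestine. In the 34 germline RNA regulators and germ granule genes, the 118 introns together came to 46.5 ± 2.06 reads per 1000 host gene reads after 2 h. The values were 36.3 ± 2.72 after 1 h and 4.07 ± 0.298 with ethanol. All 91 of these introns that were tested rose at 2 h, and 90 at 1 h. In genes of meiosis and recombination 98 introns had 60.2 ± 3.83, 44.98 ± 2.88 and 4.26 ± 0.460 in that order, and 64 of 64 tested rose at both times. Genes of the oocyte and eggshell had 39.6 ± 2.37, 27.1 ± 1.92 and 1.59 ± 0.0821, and 42 of 44 rose at both times. Since an intron can pass the filter through the auxin groups, the introns of hosts with at least 1000 counts were counted too. Of these 106 of 111 rose at 2 h in the germline RNA list, 64 of 68 in meiosis and 43 of 46 in the oocyte list. Over all introns of such hosts with any read, 65.9% rose. All 12 auxin libraries lay above all ethanol libraries in each of these lists. Medians of the log2 change at 2 h were 4.85, 4.98 and 5.66 in the 3 lists, beside 3.45 over all introns tested.

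Single introns of these lists did not all behave alike. In htp-1, which encodes a HORMA-domain protein of meiotic chromosome axes, the 46-base first intron (chromosome IV, 5391446 to 5391491) had 53.8, 63.5 and 70.4 after 2 h, 46.2, 52.8 and 63.7 after 1 h, and 0, 0.617 and 1.27 with ethanol, where it held at most 3 reads per library. It was at least 41.1-fold higher at 2 h, against a floor of 3 reads per library. The 49-base last intron of its close relative htp-2 (chromosome IV, 6420568 to 6420616) had 40.9, 45.7 and 59.5 after 2 h, 42.6, 48.8 and 52.6 after 1 h, and 27.8, 31.1 and 40.05 with ethanol (log2 change 0.60, SE 0.13, edgeR adjusted p = 5.32e-05, and -1.98 with TMM scaling of the intron counts). Its 2 h and ethanol groups did not overlap, though the ethanol level was already high. The 2 genes are near copies of each other, and how reads that fit both were counted is not given in the sources used here.

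The gene gld-1 encodes a translational repressor of the germline, and its 48-base intron (chromosome I, 7696654 to 7696701) was read in every group. It had 22.1, 23.2 and 26.8 after 2 h, 19.8, 23.1 and 26.9 after 1 h, and 17.8, 21.1 and 21.6 with ethanol. The change at 2 h passed the threshold (log2 change 0.24, SE 0.10, edgeR adjusted p = 0.0235). But it was -0.02 (edgeR adjusted p = 0.897) when scaled to library size with TMM factors of the gene counts in place of the host. The host mRNA fell by 0.24 on the log2 scale (edgeR adjusted p = 0.00536). Without batch X the change relative to the host was 0.17 (edgeR adjusted p = 0.128). The other introns of the class in gld-1 had medians of 4.42, 3.53, 3.56 and 2.89 after 2 h. Their medians were 4.68, 3.90, 3.72 and 2.57 after 1 h, and 0.173, 0.120, 0.1205 and 0.264 with ethanol. Each of these introns rose at 2 h. In puf-3, a PUF-family gene of oocytes whose interval overlaps the span of another gene, the intron (chromosome IV, 13510888 to 13510934) had 42.2, 45.4 and 52.2 after 2 h, 22.5, 28.7 and 32.8 after 1 h, and 0.702, 1.06 and 1.28 with ethanol.

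Introns in genes used by dividing cells were counted next. In replication, cell cycle and kinetochore genes 109 introns had 42.99 ± 2.97 per 1000 host gene reads after 2 h, 32.2 ± 2.73 after 1 h and 3.95 ± 0.340 with ethanol, and 88 of 89 tested rose at 2 h. Nuclear pore and transport genes had 26.5 ± 1.06, 17.6 ± 1.59 and 1.51 ± 0.154, with 68 of 69 up. Spliceosome genes themselves had 20.7 ± 1.23, 14.3 ± 1.35 and 1.35 ± 0.0607, with 48 of 48 up. In hosts of at least 1000 counts 106 of 109, 82 of 83 and 50 of 55 introns of the 3 lists rose at 2 h. Over all introns of such hosts with any read, 65.9% rose. The groups did not overlap in these 3 lists.

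In cdk-1, for the kinase that drives mitosis and meiosis, the 48-base second intron (chromosome III, 9747911 to 9747958) had 75.1, 81.5 and 88.4 after 2 h, 62.0, 71.5 and 84.2 after 1 h, and 4.32, 5.84 and 6.2 with ethanol (log2 change 3.83 at 2 h, SE 0.13, edgeR adjusted p = 1.33e-30). The 46-base intron of ima-2, an importin alpha, had medians of 38.2 after 2 h, 24.6 after 1 h and 2.19 with ethanol, and the first intron of the nuclear transport GTPase gene ran-1 13.1, 8.43 and 0.567. Of the spliceosome, the 50-base first intron of snr-1 (chromosome IV, 17088135 to 17088184), which encodes an Sm protein, had 64.5, 71.6 and 77.2 after 2 h, 37.9, 43.4 and 57.9 after 1 h, and 4.82, 8.51 and 10.2 with ethanol. The SR protein gene rsp-6 had medians of 28.8, 24.5 and 0.456 in its 46-base intron. In all 4 genes every auxin library lay above every ethanol library. The exception in the cell cycle list was the 49-base intron of mat-1 (chromosome I, 5125483 to 5125531), for a subunit of the anaphase-promoting complex. It had 58.6, 66.1 and 69.96 after 2 h, 53.9, 66.1 and 71.0 after 1 h, and 57.2, 68.5 and 71.3 with ethanol (log2 change -0.04, adjusted p = 0.738), and it overlaps an annotated exon of the same gene.

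**Figure D5:**
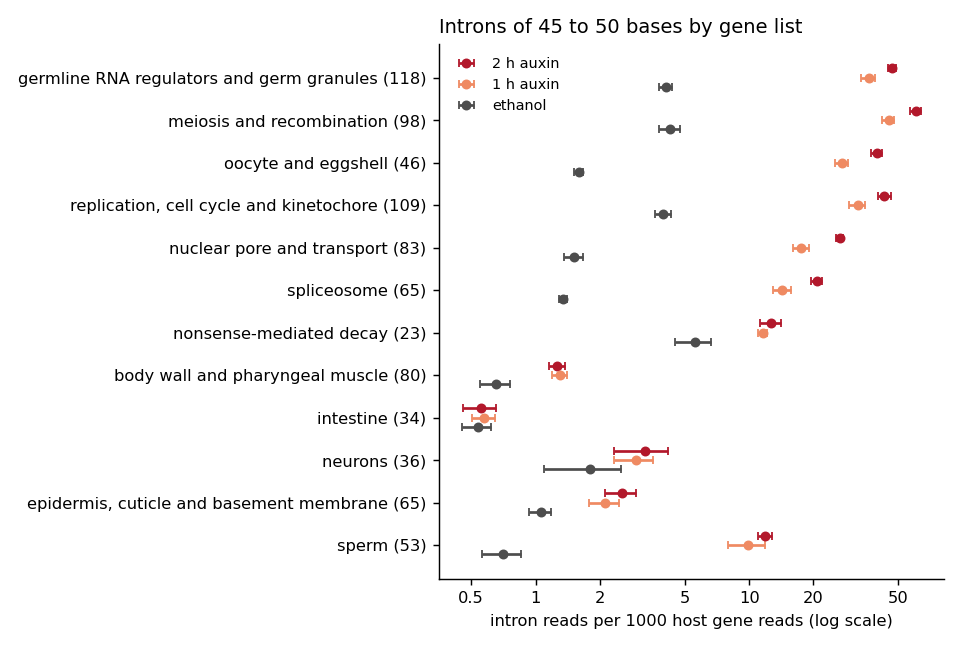
Reads in introns of 45 to 50 bases per 1000 host gene reads (x axis, log scale), for 12 lists of genes with the number of introns in brackets, as mean ± SD over 6 libraries for each group. Reads are summed over all introns of a list with each host counted once, so values also depend on the number of introns per host. Germline, cell cycle, nuclear pore and spliceosome lists lie between 20.7 and 60.2 after 2 h and at or below 4.26 with ethanol, while the intestine list lies between 0.536 and 0.576 in all groups.

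Lists of somatic genes had low levels in all groups, though the muscle and epidermis lists were higher with auxin. In 80 introns of muscle genes there were 1.26 ± 0.106 reads per 1000 host gene reads after 2 h, 1.297 ± 0.104 after 1 h and 0.654 ± 0.103 with ethanol, and 1 of 7 tested introns rose. In 34 introns of intestine genes the values were 0.553 ± 0.0971, 0.576 ± 0.0729 and 0.536 ± 0.0839. The groups overlapped, and of 10 tested introns 2 rose at 2 h and 1 fell. Neuron genes had 3.26 ± 0.932, 2.94 ± 0.621 and 1.80 ± 0.702 over 36 introns, and the 1 tested, in ric-8, a regulator of G proteins, was not called at 2 h (log2 change 0.39, edgeR adjusted p = 0.184) but was without batch VII (0.66, adjusted p = 0.0337). The ric-8 interval overlaps an annotated exon of its gene. Genes of epidermis, cuticle and basement membrane had 2.54 ± 0.433, 2.12 ± 0.339 and 1.06 ± 0.124 over 65 introns. In the muscle and epidermis lists every auxin library lay above every ethanol library. The lowest auxin libraries had 1.1 and 1.68, and the highest ethanol libraries 0.770 and 1.22. The ranges of the neuron list overlapped. As for the mRNA of these lists, muscle genes summed to 17790 to 21400 CPM after 2 h, 17160 to 20100 after 1 h and 15930 to 18810 with ethanol, and intestine genes to 74980 to 97580, 70900 to 90840 and 64490 to 88320 CPM, and the part of these levels in the intron values was not tested. Few introns of these lists passed the filter. Among the muscle introns in hosts of at least 1000 counts 6 of 76 rose at 2 h, beside 65.9% of all introns of such hosts with any read. In the intestine list this count was 3 of 28, in the neuron list 1 of 2 and in the epidermis list 3 of 48.

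In the muscle list the intron that rose was in act-2, an actin gene whose 45-base first intron (chromosome V, 11077893 to 11077937) had 4.62, 5.01 and 5.77 after 2 h, 3.71, 5.28 and 5.44 after 1 h, and 0.139, 0.464 and 1.12 with ethanol (log2 change 3.23 at 2 h, SE 0.19, edgeR adjusted p = 4.94e-21). Actin genes are near copies of each other, so reads may be shared. In the epidermis list all 3 that rose lie in ptr-2, a patched-related gene, and its 46-base second intron had 9.94, 10.7 and 13.5 after 2 h, 5.42, 6.72 and 8.30 after 1 h, and 0, 0.222 and 0.62 with ethanol, at least 15.75-fold higher at 2 h against a floor of 3 reads per library. In the intestine list the 2 that rose lie in erm-1, an ezrin-like linker of membrane and actin, and fat-7, a fatty acid desaturase. The 49-base intron of cpn-3, a calponin gene of the muscle list, had 6.60, 7.36 and 8.80 after 2 h, 6.30, 7.78 and 10.1 after 1 h, and 5.42, 7.03 and 8.99 with ethanol, and its groups overlapped.

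Few introns of the sperm and embryo lists were well read. Of 53 introns of the sperm list 8 were tested and all 8 rose. The 53 together had 11.9 ± 0.865 per 1000 host gene reads after 2 h, 9.90 ± 1.92 after 1 h and 0.706 ± 0.147 with ethanol. All 8 tested introns lie in wee-1.3, an inhibitory kinase gene, spe-39, a gene of vesicle traffic, and spe-44. These calls therefore do not speak for the rest of the 18 hosts of the list. In hosts of at least 1000 counts 12 of 14 rose at 2 h. In the 49-base intron of wee-1.3 there were 11.3, 15.1 and 16.8 after 2 h, 10.9, 12.4 and 18.9 after 1 h, and 0, 0.119 and 0.291 with ethanol, at least 18.4-fold higher at 2 h against a floor of 3 reads per library. None of 12 introns in genes of the early zygotic embryo could be tested. Nonsense-mediated decay genes, which act on faulty mRNA, had 12.7 ± 1.46, 11.6 ± 0.586 and 5.56 ± 1.06 over 23 introns, with 1 of 2 tested introns up and 11 of 18 in hosts of at least 1000 counts. Beside these counts, 85.0% of all introns tested rose at 2 h, and 65.9% of all introns of such hosts with any read.

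Host mRNAs of the introns that rose more often fell than rose. Of 1894 hosts with an intron of the class that rose at 2 h, 847 fell as genes, 133 rose and 914 were not called, with a median log2 change of -0.12. Over all 13969 genes tested 20.1% fell and 14.5% rose at 2 h, with a median of 0.07. A fall of the host raises its intron in this ratio, so the choice of these hosts is not independent of their fall. Their introns also had to pass the filter on low counts, and the genes tested were not matched to these hosts in level. The gene C16A11.5 had the steepest host among those named: its mRNA was at 3.98 ± 0.291 CPM after 2 h, 6.60 ± 0.647 after 1 h and 25.9 ± 1.42 with ethanol (log2 change -2.70, SE 0.07, edgeR adjusted p = 1.06e-15). Its 50-base intron (chromosome II, 4225680 to 4225729) held 5 to 26 reads per library after 2 h, 4 to 14 after 1 h and 0 in every ethanol library, at least 34.35-fold higher relative to the host at 2 h.

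Of the 10 introns that fell at 2 h, the largest fall was that of the 47-base intron of F35G12.5 (chromosome III, 4585632 to 4585678), with 4.51, 7.03 and 12.6 after 2 h, 2.04, 15.1 and 17.7 after 1 h, and 21.2, 27.4 and 42.3 with ethanol (log2 change -1.88 at 2 h, SE 0.32, edgeR adjusted p = 5.97e-07). No auxin library reached the ethanol range, on 1 to 10 reads per auxin library and 13 to 29 per ethanol library. In cmtr-2, for a cap methyltransferase, the 45-base intron (chromosome III, 6615976 to 6616020) had 2.58, 8.77 and 16.7 after 2 h, 14.5, 18.8 and 36.3 after 1 h, and 22.9, 31.8 and 48.7 with ethanol (log2 change -1.72 at 2 h, adjusted p = 9.97e-07).

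Another fall was in mett-10, whose product methylates U6 small nuclear RNA, a part of the spliceosome. Its 50-base intron (chromosome III, 10115934 to 10115983) had 16.8, 23.2 and 31.8 after 2 h, 16.4, 26.04 and 36.3 after 1 h, and 45.6, 53.6 and 68.8 with ethanol, and every auxin library lay below every ethanol library (log2 change -1.23 at 2 h, SE 0.24, and -1.13 at 1 h, SE 0.23, edgeR adjusted p = 4.26e-06 and 9.38e-06). In pdpr-1, for a regulator of pyruvate dehydrogenase phosphatase, the intron had 2.20, 3.32 and 5.47 after 2 h, 6.06, 6.60 and 9.69 after 1 h, and 7.73, 9.50 and 11.4 with ethanol. The falls in rde-8, a nuclease gene of RNA interference, and T16G12.6 were smaller, with log2 changes of -1.21 and -0.72 at 2 h (adjusted p = 0.000274 and 0.000872). All 6 hosts also had lower mRNA at 2 h, from -0.62 in cmtr-2 to -0.11 in pdpr-1 on the log2 scale, and in T16G12.6 the host did not pass the threshold (adjusted p = 0.0511).

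Steps between the auxin times were seen in single introns. The largest rise from 1 h to 2 h was in the 45-base first intron of F14D7.2 (chromosome V, 14293570 to 14293614), with 26.9, 36.2 and 43.6 after 2 h, 2.80, 9.71 and 11.7 after 1 h, and no read in any ethanol library, at least 9.59-fold higher at 2 h than a floor of 3 reads per ethanol library (log2 change from 1 h to 2 h 2.05, SE 0.29, edgeR adjusted p = 5.24e-07). In snpc-1.1, for a subunit of the complex that activates small nuclear RNA genes, the 50-base intron (chromosome II, 7780929 to 7780978) had 59.97, 88.5 and 95.5 after 2 h, 14.1, 23.9 and 32.8 after 1 h, and 0, 0.503 and 4.54 with ethanol (1.79, SE 0.20, adjusted p = 1.98e-09). The introns of C37A2.8, gfl-1, C16A11.5 and ZK484.6 had steps of 2.01, 1.77, 1.74 and 1.74, and that of C16A11.5 was 0.66 (adjusted p = 0.129) with TMM scaling of the intron counts. In all 6 introns the 2 h value was above the 1 h value in 6 of 6 batches. In ZK484.6 the host was at 1.42 ± 0.470 CPM after 2 h, and its ratios rest on 11 to 27 intron reads per library after 2 h, 3 to 7 after 1 h and 0 to 3 with ethanol.

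The largest falls from 1 h to 2 h were in cmtr-2 and pdpr-1, described above, and in cpr-1, an intestinal cathepsin B-like protease gene. The 46-base intron of cpr-1 (chromosome V, 11976329 to 11976374) had 0.860, 1.77 and 2.28 after 2 h, 2.43, 3.10 and 5.59 after 1 h, and 2.41, 2.69 and 3.14 with ethanol. The change from 1 h to 2 h was -1.03 (SE 0.23, edgeR adjusted p = 0.000506). Against ethanol the 2 h change was -0.71 (adjusted p = 0.00588), and without batch X it was -0.52 (adjusted p = 0.053).

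A few introns were read heavily in every group. The highest with ethanol, among hosts of at least 1000 counts in every group, was the 50-base intron of lec-12, a galectin gene (chromosome V, 208153 to 208202), with 119.7, 135 and 152 after 2 h, 124, 159.8 and 169.7 after 1 h, and 146, 169 and 192 with ethanol (log2 change -0.33 at 2 h, SE 0.11, edgeR adjusted p = 0.00695). It was lower than with ethanol in 5 of 6 batches, and the 2 h and ethanol ranges overlapped. The introns of epg-4, an autophagy gene, picc-1 and cpb-1, a gene for a CPEB-family RNA-binding protein, had medians of 109.4, 98.5 and 73.9 after 2 h, 109.5, 95.1 and 85.5 after 1 h, and 107.5, 85.7 and 84.3 with ethanol. These 3 were not called in either comparison with ethanol. But scaled to library size with TMM factors of the gene counts, the epg-4 change at 2 h was -0.32 (edgeR adjusted p = 0.0171). With TMM scaling of the intron counts it was -2.77 (adjusted p = 7.14e-27).

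The introns not called at 2 h with the most abundant hosts lie in vit-6, a yolk protein gene of the intestine, the muscle genes unc-54 and unc-15, for a myosin heavy chain and paramyosin, and rps-14, for a ribosomal protein. In vit-6 there were 0.121, 0.182 and 0.238 after 2 h, 0.122, 0.190 and 0.223 after 1 h, and 0.105, 0.193 and 0.205 with ethanol, on 40 to 157 reads per library (log2 change 0.04, SE 0.15, edgeR adjusted p = 0.816). The intron of the protease gene asp-6 had 1.77, 2.44 and 2.82 after 2 h, 1.93, 2.28 and 2.85 after 1 h, and 1.94, 2.504 and 2.83 with ethanol. The intron of unc-54 had medians of 0.231 after 2 h, 0.198 after 1 h and 0.204 with ethanol. In these somatic hosts the groups overlapped.

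The 48-base intron of rps-14 (chromosome III, 7179225 to 7179272) varied widely between batches. It had 3.44, 12.7 and 25.7 after 2 h, 2.31, 15.6 and 21.5 after 1 h, and 1.75, 9.65 and 22 with ethanol. Batch X was lowest in each group. With no block for the batch the log2 change at 2 h was 0.58 (SE 0.37, edgeR adjusted p = 0.139), and with the batch as a block it was 0.80 (adjusted p = 3.52e-06). Leaving out batch II gave 1.04 (adjusted p = 0.0148), and leaving out batch X gave 0.58 (adjusted p = 0.0255).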

How the data were processed

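The authors deposited raw counts of reads per protein-coding gene and raw counts per intron interval for all 18 libraries, and both tables were used as they stand. Interval and gene lengths in the same tables were used only to choose and scale introns. Per the labels' protocols, poly-A selected RNA was made into stranded libraries with a TruSeq kit. Per the submitters' processing notes, Trimmomatic, cutadapt, STAR, SAMtools, Picard, featureCounts, limma and edgeR were used, with no version. The genome build and the strand and overlap settings of the intron counts are not given in the sources used here, so an intron overlapped by another gene (758 of the 21157) may hold its reads. Of 106818 intervals 104851 (98.2%) match an intron of the WBcel235 annotation, and symbols were found for 19879 of 20191 gene identifiers.

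Reads per 1000 host gene reads were computed in each library. Introns with a single host were tested in edgeR 4.0.16 (R 4.3.3) with the log of the host count plus 0.5 as offset, filterByExpr with minimum count 10 and 1 model over all libraries. P-values were adjusted by Benjamini-Hochberg over 13879 introns, and calls made at 0.05. Genes were tested in edgeR with TMM scaling and no block for the batch. The biological coefficient of variation was 0.14 for introns relative to the host and 0.106 for genes, and counting error adds to it at low counts. DESeq2 1.42.0, other scalings, filters, a batch block and each batch left out were alternatives. The fit was also run on simulated counts, with an outcome that is not given here. SE is the log2 change divided by the root of F.

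The labels name the batches. Deviations of libraries of a batch were positively correlated in every pair, at 0.000532 to 0.233 across introns and 0.146 to 0.673 across genes. Between batches the values were -0.119 to 0.0614 and -0.521 to 0.385, and both ranges overlapped those within batches. The floor of 3 reads allows for counting error alone, because PCR copies were not told apart by molecular tags. The introns, the gene lists and the rules for named introns were chosen with earlier results of these data known. Named, with 1 intron per gene for each rule, were the 6 highest after 2 h, the 6 largest rises and falls at 2 h, the 6 largest rises and 3 largest falls between the times, the 4 highest with ethanol, 4 in the most abundant hosts not called, and the 1 or 2 most read of each list. Both erm-1 and fat-7 fall outside this rule and were chosen after their values were seen, as was spe-44.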

Additional observations from a re-analysis of the deposited data

Results flagged for a closer look

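In each group of 6 libraries the highest and lowest library were set against the rest, and 14 of 207 groups held a library far from the others. Chance alone flags about 1 in 20 groups. All values are reads per 1000 host gene reads.

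Among introns highest or lowest in 1 library with auxin, pdpr-1 had 9.69 after 1 h in batch VII, beside 6.06 to 6.92 in the others. F14D7.2 had 2.80 after 1 h in batch V, beside 8.77 to 11.7. In picc-1 the 2 h library of batch I had 78.8, beside 95.4 to 104.9. The 1 h library of batch X had 3.71 for act-2, beside 4.88 to 5.44. The 2 h library of batch VII had 8.80 for cpn-3, beside 6.60 to 7.38. In ref-1, a gene of the embryo list, the 1 h library of batch VIII had 85.1, beside 0 to 12.3, on 4 reads at most.

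With ethanol, elof-1 had 15.02 in batch VIII, beside 0 to 2.16, and snpc-1.1 had 4.54 in batch X, beside 0 to 1.03. The intron of unc-15 had 0.890 in batch II, beside 0.0325 to 0.223. The cdk-1 intron had 4.32 in batch VII, beside 5.72 to 6.2, and the ref-1 intron 12.99 in batch V on 1 read, with 0 elsewhere. Pooled over lists, the meiosis list had 52.8 after 2 h in batch II, beside 60.4 to 63.2, the sperm list 10.3 after 2 h in batch II, beside 11.8 to 12.7, and the spliceosome list 1.47 with ethanol in batch V, beside 1.3 to 1.353.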

How the results depend on the processing

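With the batch as a block there were 3804 rises and 11 falls at 2 h, 3785 and 15 at 1 h, and 1979 and 23 from 1 h to 2 h. Over all introns tested, rises were then 85.35%, 84.45% and 38.74%, and falls 0.584%, 0.706% and 0.951%. No count of the class moved by over 1.5 times. Besides rps-14, the block added a call for gld-1 at 1 h (edgeR adjusted p = 0.0306). Leaving out each batch in turn gave 3742 to 4018 rises and 9 to 12 falls at 2 h, 3731 to 4000 and 8 to 12 at 1 h, and 1460 to 1753 and 15 to 21 between the times. Over all introns tested, rises were then 84.11% to 85.04% at 2 h, 83.16% to 84.0% at 1 h and 28.06% to 33.63% between the times. Falls were 0.448% to 0.506%, 0.413% to 0.537% and 0.554% to 0.782% in that order. The pooled values then ran from 16.8 to 17.6 after 2 h, 13.02 to 13.6 after 1 h and 2.53 to 2.63 with ethanol.

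With no filter, 15607 introns were tested. Rises then numbered 6749 at 2 h and 6312 at 1 h, and falls 51 and 33. Over all introns with any read, 32.44% and 29.75% rose, and 0.365% and 0.341% fell. Tested against a fold change of 1.5, falls numbered 5 at 2 h and 2 at 1 h, beside 0.1225% and 0.1009% of all introns tested. From 1 h to 2 h there were 184 rises and 0 falls, beside 3.17% and 0.036%. Scaled to library size with TMM factors of the gene counts, 24 fell at 2 h, beside 1.17% of all introns tested, and the gld-1 change at 2 h was -0.015. The gld-1 call at 2 h was lost with no filter (adjusted p = 0.119) and without batch X (0.128). The rps-14 intron was called at 2 h with no filter (adjusted p = 4.26e-06). The cmtr-2 call at 1 h was lost without batch VII (adjusted p = 0.235) or X (0.0773), and that of pdpr-1 without I, II, VIII or X (0.0589 to 0.14).

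TMM scaling of the intron counts assumes that most introns do not change, and it moved the median log2 change of all introns at 2 h to 0.94, beside 3.45 relative to the host. It gave 519 falls at 2 h and 517 at 1 h, where 27.26% of all introns tested fell at 1 h. At 2 h 68.93% of the introns rose and 12.95% fell, beside 51.91% and 28.11% of all introns. There were 339 rises and 192 falls between the times, beside 6.70% and 6.10%. This scaling turned the direction in gfl-1 (-0.33), cpr-1 (-1.82), cpb-1 (-2.12) and smg-1 (-2.20) at 1 h. At 2 h and 1 h it did so in picc-1 (-2.52 and -2.04), vit-6 (-2.25 and -1.99), unc-54 (-2.14 and -1.95), unc-15 (-2.12 and -1.83), rps-14 (-2.02 and -1.76), gld-1 (-2.47 and -2.07), htp-2 (-1.98 and -1.61), cpn-3 (-2.25 and -1.86) and ric-8 (-2.15 and -1.78).

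The median over introns was 4.16 after 2 h, 3.31 after 1 h and 0.362 with ethanol, and 1 intron per host gave 7.56, 5.76 and 1.28. With ethanol the pooled value was 2.18 when the most read 1% were left out, and 2.39 without intervals that match no annotated intron or overlap an exon of their gene. The causes were not tested. Depth limits the 2015 introns with at most 3 reads in every ethanol library.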

Other observations

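The batch II ethanol library held the highest ethanol value both of the rps-14 intron, 22 reads per 1000 host gene reads, and of the unc-15 intron, 0.890. In batch X the rps-14 intron had 3.44 after 2 h, 2.31 after 1 h and 1.75 with ethanol, the lowest of each group, and the unc-15 intron had 0 after 2 h, 0 after 1 h and 0.111 with ethanol. The cause was not tested.

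The 171 introns of exactly 40 bases, outside the class, had 10.7 ± 0.509 reads per 1000 host gene reads after 2 h, 10.8 ± 0.909 after 1 h and 7.37 ± 0.493 with ethanol, a ratio of 1.45 at 2 h, beside 5.57 for 495 introns of 41 bases.

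Among introns of the class, 129 match no annotated intron, and they had 17.1 ± 0.927 reads per 1000 host gene reads after 2 h, 16.4 ± 0.742 after 1 h and 14.2 ± 0.559 with ethanol. The 164 that overlap an annotated exon of their gene had 17.9 ± 1.03, 16.8 ± 0.992 and 10.1 ± 0.591.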
